A study of Mus musculus with 55 samples.

Results

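The comparison of growing mouse oocytes labelled Dhx36 sko with growing oocytes labelled control uses 6 of the 55 samples of the series, chosen by their labels alone. They stand in a gene count table that holds 20 RNA sequencing libraries of the series in all. The 3 sko libraries carry the replicate numbers 4, 5 and 6, and the 3 control libraries the numbers 1, 2 and 3. Per the labels' protocol, growing oocytes were taken from Dhx36fl/fl;SKO mice and from control mice. Dhx36fl/fl is a conditional allele of Dhx36 whose flanked part a Cre recombinase can remove. The labels do not expand SKO, and they give neither the Cre driver, the genotype of the controls nor the age of the animals. Whether a library came from 1 animal or a pool is not stated either, so the p-values measure the spread between these libraries, which may be technical. All values are relative to the other transcripts of a library, and in bulk samples fewer cells of a type and less RNA per cell cannot be told apart.

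DHX36 (RHAU) is an RNA and DNA helicase. Its known substrates are G-quadruplexes, folds of guanine-rich sequence held by stacked squares of G. A growing oocyte transcribes and stores messenger RNA on a large scale, builds the secreted zona pellucida around itself, and is fed metabolites by the surrounding granulosa cells through gap junctions. Transcription then stops before the meiotic divisions, and the stored RNA carries the egg through maturation and the first cleavage.

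Total counts were 35063518, 36591875 and 35257146 in the sko libraries and 41075545, 31930695 and 32028997 in the control libraries. Across tested genes, Pearson's r of log2 CPM (counts per 1000000) between libraries was 0.984 to 0.986 within sko, 0.979 to 0.983 within control and 0.911 to 0.925 between the groups. All 20 oocyte markers passed the filter on low counts, with 3 higher and 9 lower in sko, and together they took 5.22 to 5.91% of counts in sko and 5.79 to 6.20% in control libraries. Of 20 granulosa and cumulus markers, 9 were tested and 5 of these were higher in sko (Fshr, Cyp19a1, Kitl, Nr5a2 and Serpine2). The other 4 were not called. In the sko and control groups Inha had 107 and 143 counts, Hsd17b1 91 and 151, Inhba 39 and 19, and Has2 32 and 21. The whole list summed to 0.134 to 0.148% of counts in sko and 0.0870 to 0.0991% in control libraries, most of it from Serpine2. Ptx3 and Tnfaip6 had 0 counts in all 6 libraries, and Foxl2 had 2 counts in the sko group and 6 in the control group. Theca and stroma markers took 0.000508 to 0.000888% of counts in sko and 0.000278 to 0.000332% in control libraries, with Tcf21 at 0 in all 6. Of 17 markers of immune, endothelial and blood cells, 3 were higher, among them Ptprc and Tek, and 2 lower (Pecam1 and Cd68) in sko, and Cd14 and Emr1 were at 0 throughout. The part of other cell types in the results below was not tested.

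Dhx36 itself (chromosome 3, 62273961 to 62310926, minus strand, build mm9) was measured first. It had 2.83, 1.95 and 1.73 normalised CPM in the sko libraries, against 7.34, 8.06 and 10.9 in the controls, where normalised CPM are CPM of a library size scaled by TMM (trimmed mean of M values) factors. All 3 sko libraries lay below all 3 controls. The log2 fold change was -2.01 ± 0.24 (standard error, SE), with a Benjamini-Hochberg adjusted p of 4.2e-06 in the quasi-likelihood test of edgeR, the test used for every gene. Reads remained in each sko library, and which exons they fall in is not given by gene counts.

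Of 14081 genes tested, 7566 (53.7%) passed an adjusted p of 0.05. In sko oocytes 4017 genes (28.5%) were higher and 3549 (25.2%) lower. Scaled by library size alone, without TMM factors, these counts became 4825 and 2386, so that 66.9% of calls were higher in place of 53.1%, and the median log2 fold change of all genes was 0.21 in place of 0.023. Directions below are relative to the TMM centre. All 3 sko libraries lay above all 3 controls in 4540 genes (32.2%) and below them in 4034 (28.6%). The larger changes among called genes were mostly increases, with 2620 genes higher and 1278 lower by at least 2-fold, and 1108 higher and 241 lower by at least 4-fold. Of those of at least 2-fold, 794 higher and 224 lower had a mean under 1 normalised CPM over the 6 libraries. In simulated counts, 36 of 50 genes raised 2-fold were called, against 25 of 50 lowered 2-fold. At 4-fold these were 47 and 43. Whether decreases were missed more often than increases in the 6 libraries was not tested.

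**Figure D1:**
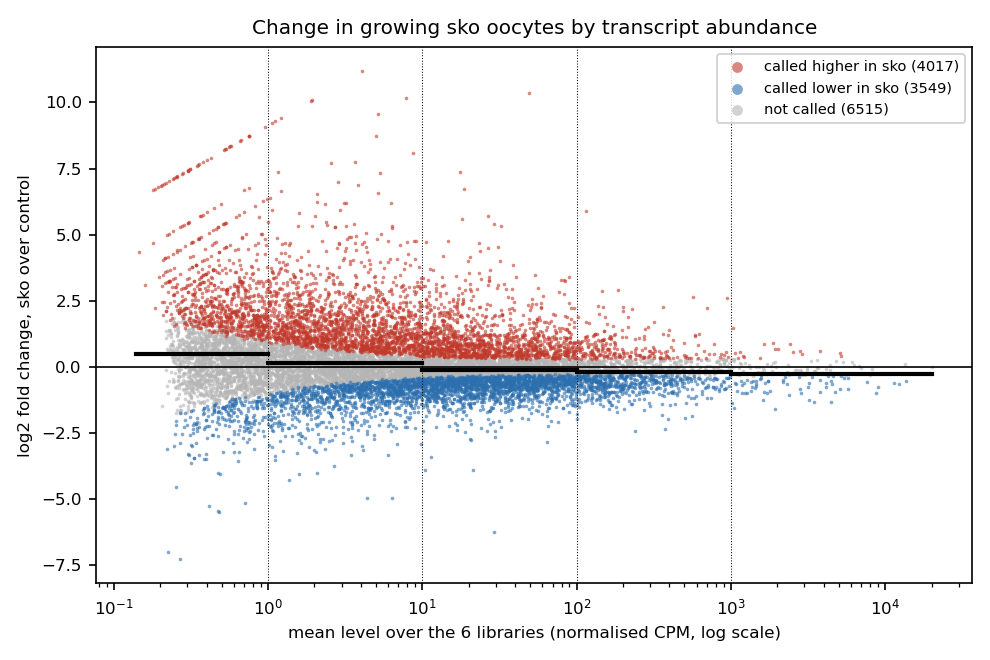
Each point is 1 of 14081 tested genes, with the mean normalised CPM over the 6 libraries on the horizontal log axis and the log2 fold change of sko over control on the vertical axis. Red points are called higher in sko (4017), blue points lower (3549) and grey points not called; the thick bars give the median of each abundance class, from 0.49 in the class under 1 CPM to -0.26 in the class of 1000 CPM and over.

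The direction of change went with transcript abundance. Genes were placed in classes by their mean normalised CPM over all 6 libraries, a measure of reads and not of molecules per length. Under 1 CPM, 794 of 2786 genes (28.5%) were higher and 224 (8.04%) lower in sko. From 1 to 10 CPM, 1728 of 5149 (33.6%) were higher and 1100 (21.4%) lower, and from 10 to 100 CPM, 1245 of 4692 (26.5%) were higher and 1634 (34.8%) lower. In the class of 100 to 1000 CPM, 232 of 1304 (17.8%) were higher and 526 (40.3%) lower. Of the 150 genes at 1000 CPM and over, 18 (12%) were higher and 65 (43.3%) lower. The shift is a matter of order between classes: with library size alone the balance turned to 1605 higher and 1067 lower at 10 to 100 CPM and to 379 higher and 348 lower at 100 to 1000 CPM, and it stayed at 32 higher and 53 lower at 1000 CPM and over. A gene of the lowest class that passed the filter on low counts only through the group where it is high had to differ, so the counts of that class are a description.

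The raw shares of counts in tested genes differed at both ends of the range. The 150 most abundant genes held 45.6, 45.1 and 44.2% of counts in the sko libraries and 49.7, 47.7 and 46.2% in the controls. Genes of 1 to 10 CPM held 2.34, 2.30 and 2.38% in sko and 1.62, 1.81 and 1.97% in control libraries, and genes under 1 CPM held 0.192, 0.189 and 0.194% in sko and 0.111, 0.123 and 0.134% in control libraries. In each of these 3 classes the groups did not overlap. The classes between, where more genes were called lower than higher, did not hold less of the counts: genes of 10 to 100 CPM held 17.0, 17.1 and 17.6% in sko and 14.5, 15.6 and 16.7% in control libraries, and genes of 100 to 1000 CPM held 34.9, 35.3 and 35.7% in sko and 34.1, 34.7 and 34.9% in control libraries. Between 14413 and 14541 genes had at least 10 counts in a sko library, against 13059 to 13345 in a control library. TMM factors were 1.05 to 1.08 in sko and 0.879 to 0.994 in control libraries.

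**Figure D2:**
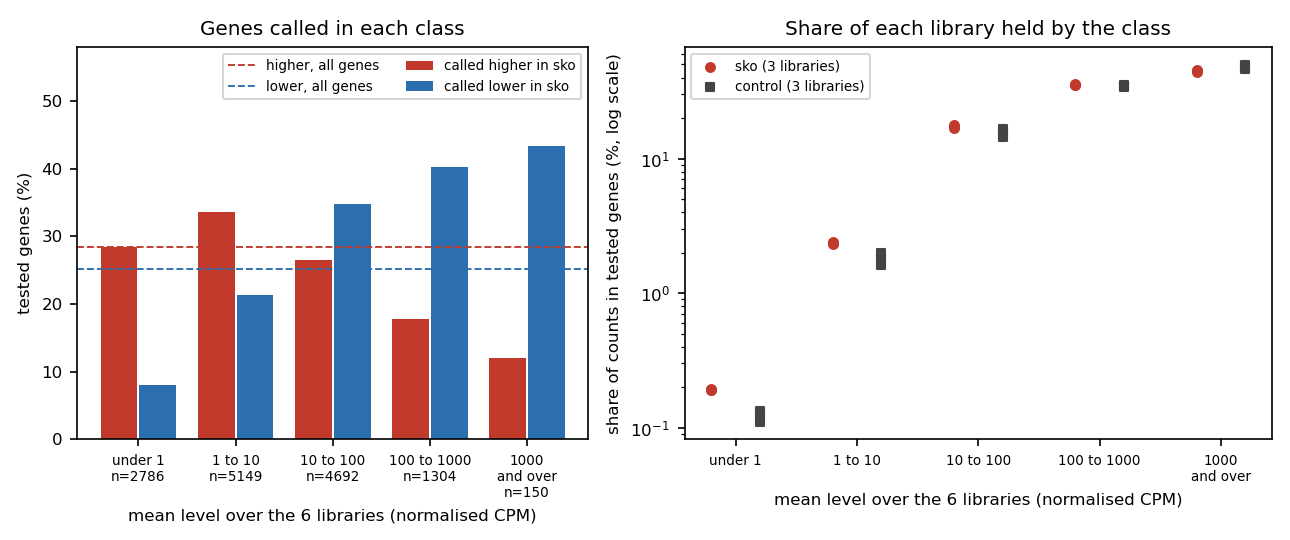
Left, the share of tested genes (%) called higher (red) and lower (blue) in sko in 5 classes of mean normalised CPM, with dashed lines at the shares of all genes (28.5% and 25.2%). Right, the share of counts in tested genes (%, log axis) that each class holds in each of the 3 sko (circles, left of each pair) and 3 control libraries (squares); the class of 1000 CPM and over lies at 44.2 to 45.6% in sko and 46.2 to 49.7% in control libraries.

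Among the most abundant transcripts, a few rose against the trend. Isca1, an assembly factor for mitochondrial iron-sulphur clusters (chromosome 13, 59856770 to 59871171, minus strand), had 1552, 1473 and 1510.1 normalised CPM in the sko libraries, against 652, 546 and 449.6 in the controls (log2 fold change 1.46 ± 0.14 SE, edgeR adjusted p 4.1e-07). Med27, a subunit of the Mediator complex, had 1998, 2257 and 2099.8 normalised CPM in the sko libraries, against 1269, 1024 and 1217 in the controls. Plat, which encodes tissue plasminogen activator, had 3861, 3094 and 3162 normalised CPM in the sko libraries, against 2458, 2543 and 1648 in the controls. In all 3 genes every sko library lay above every control. Kpna2, a nuclear import receptor, made the largest gain in mean normalised CPM among called genes, with 6425, 5853 and 5849 normalised CPM in the sko libraries, against 5033, 4263 and 3236 in the controls, at a log2 fold change of only 0.53 ± 0.15. Next came H3f3b, which encodes histone variant H3.3, with 4254, 4861 and 4527 CPM in sko and 3299, 2883 and 2841 CPM in control libraries, where reads shared with H3f3a cannot be told apart.

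The losses at the top of the range were larger. Btg4, an adaptor of the deadenylase that clears maternal messenger RNA at maturation (chromosome 9, 50924106 to 50927980, plus strand), had 5745, 6067 and 5579 normalised CPM in the sko libraries, against 12663, 11433 and 10623 in the controls, the largest loss in mean CPM (log2 fold change -1.0 ± 0.13 SE, edgeR adjusted p 9.2e-06). Ggct, a cyclotransferase of glutathione breakdown, had 924, 1125 and 848 normalised CPM in the sko libraries, against 2825, 2743 and 3177 in the controls. Mdm4, a relative of the p53 inhibitor Mdm2, had 1939, 1969 and 1941 CPM in sko and 5872, 4701 and 4241 CPM in control libraries. Nudc, a partner of the dynein motor, had 509, 681 and 529 CPM in sko and 1379, 1259 and 1781 CPM in control libraries. In these genes all 3 sko libraries lay below all 3 controls. Ubb, a polyubiquitin gene of repeated near-identical units, had 6235, 6786 and 6798 CPM in sko and 12289, 10494 and 11105 CPM in control libraries and is uncertain in its level. The gains of all genes called higher summed to 79249 normalised CPM and the losses of those called lower to -201274 normalised CPM. Normalised CPM do not add up to the same total in each library. TMM factors were 1.05 to 1.08 in sko and 0.879 to 0.994 in control libraries. These sums hold that difference in scaling and do not measure a net loss of transcript. Of the genes, 134 made 50% of the gains and 64 made 50% of the losses.

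In the class of 100 to 1000 CPM, 3 increases with small p-values were in genes of unlike functions. Htra1, a secreted serine protease (chromosome 7, 138079625 to 138129174, plus strand), had 995, 982 and 977 normalised CPM in the sko libraries, against 150.3, 179 and 137 in the controls (log2 fold change 2.66 ± 0.13 SE, edgeR adjusted p 3.6e-10). Csmd3, a large transmembrane protein with CUB and sushi domains, had 239, 269 and 263 normalised CPM in the sko libraries, against 35, 34 and 37.2 in the controls. Heatr5b, a regulator of vesicle coats at the trans-Golgi, had 245, 237 and 253 CPM in sko and 55.4, 51.6 and 45.9 CPM in control libraries. The sko libraries of these 3 genes lay together, far above the controls. From 10 to 100 CPM, Kera, which encodes the corneal proteoglycan keratocan, had 53.5, 66.4 and 58.4 CPM in sko and 2.91, 2.53 and 2.14 CPM in control libraries, while Commd8, one of the COMM domain proteins that help sort endosomal cargo, had 1.47, 0.963 and 1.44 CPM in sko and 22, 19.3 and 17 CPM in control libraries. Cd160, known as a receptor of natural killer and T cells, had 26.7, 27.1 and 26.6 CPM in sko and 122, 109 and 99.3 CPM in control libraries. Upf3b, a factor of nonsense-mediated decay, had 10.1, 11.8 and 11.8 CPM in sko and 50, 52.6 and 58.4 CPM in control libraries. From 1 to 10 CPM, Snph, which anchors mitochondria to microtubules in axons, had 0.427, 0.286 and 0.105 CPM in sko and 7.23, 8.53 and 9.71 CPM in control libraries, and the groups of all these genes did not overlap.

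At the lowest levels some genes had no reads in 1 group. Of the tested genes, 44 had 0 counts in all 3 control libraries and 2 had 0 in all 3 sko libraries. Such a gene could pass the filter on low counts only through the other group, so it had to differ, and these counts are descriptions. Dio3, the imprinted enzyme that inactivates thyroid hormone, had 276 counts in the sko group and 0 in the control group, at least 79.0-fold higher when 3 counts are taken as the floor for the whole group. Fermt3, an integrin activator of blood cells, had 1797 counts in sko and 1 in control, a ratio of 1540 with a 95% counting interval of 277 to 61000. Flrt1, an adhesion protein of developing tissue, went the other way, with 0 counts in sko and 53 in control, at least 20.6-fold lower. These bounds and intervals cover counting error only.

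The functions of the changed genes were described with 49 gene lists in 6 themes, each list given by its counts and median beside those of all tested genes (28.5% higher, 25.2% lower, median log2 fold change 0.023). These shares of all genes are not matched to a list in abundance. Among all genes 34.8% were lower and 26.5% higher at 10 to 100 CPM, and 40.3% and 17.8% at 100 to 1000 CPM. The part of abundance in any list was not tested. With TMM factors, 27 lists had more members higher and 22 more lower in sko. With library size alone, 37 lists had more higher, 10 more lower and 2 as many each way, since 10 lists turned from more lower to more higher. Every member of these lists named beside its list with values was called, with an adjusted p of 0.018 or less, and its 3 sko libraries did not overlap its 3 controls.

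**Figure D3:**
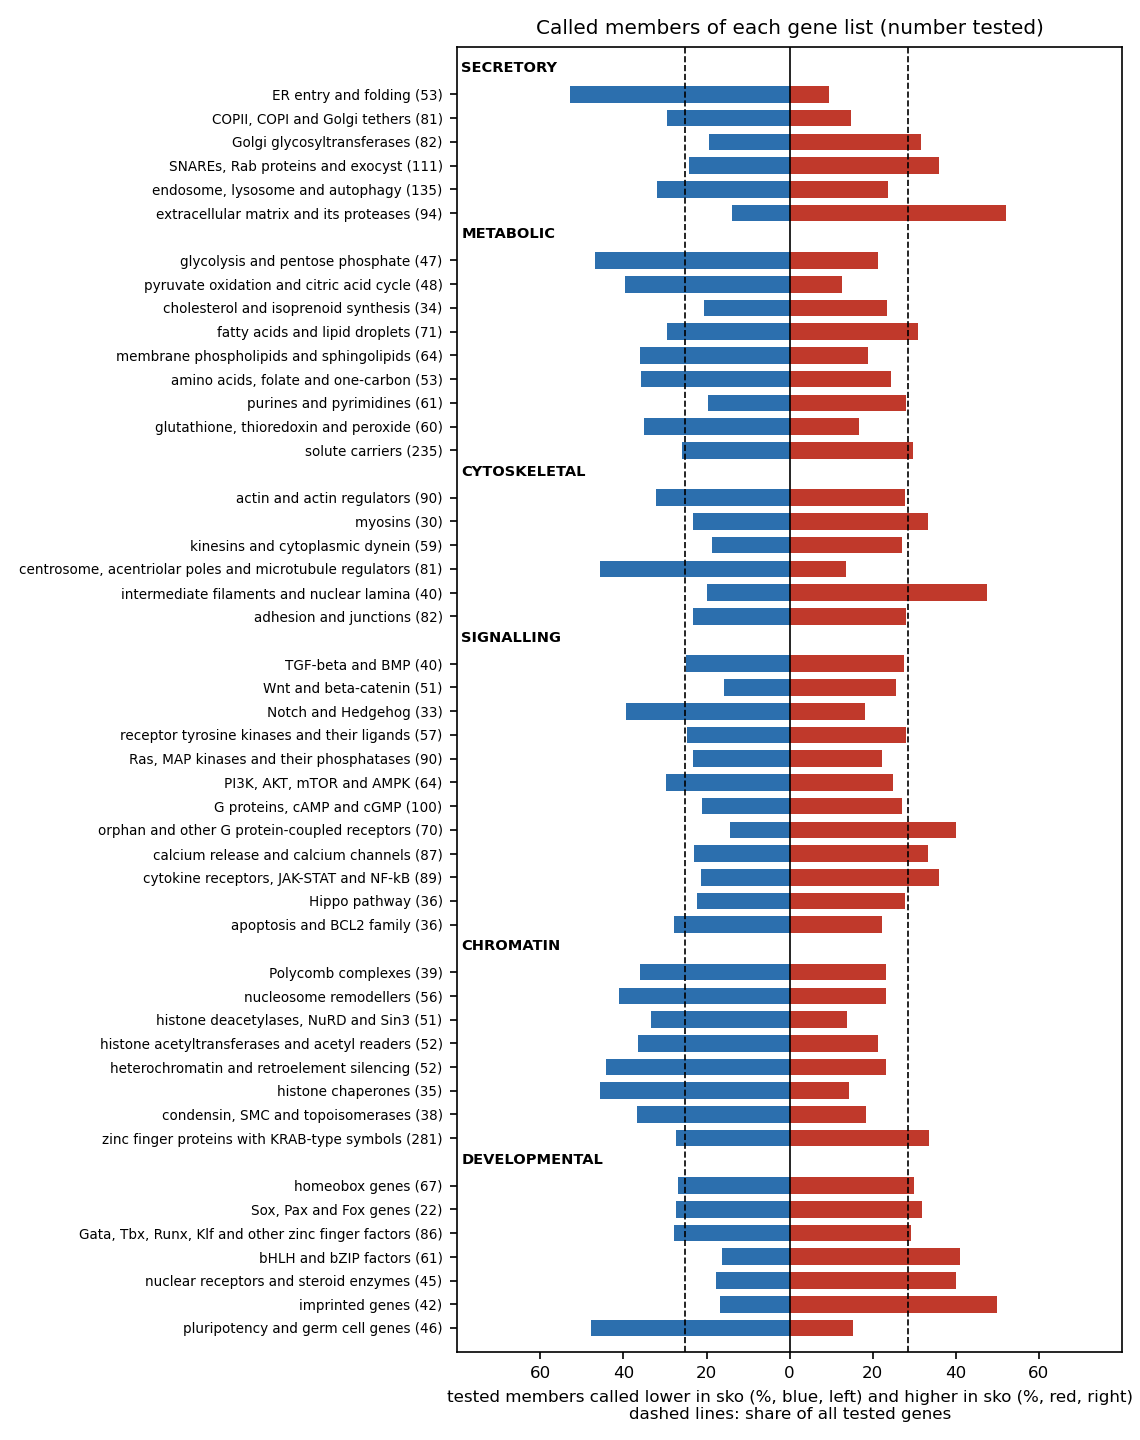
For each of 48 gene lists in 6 themes, the share of tested members (%) called lower in sko (blue, to the left) and higher in sko (red, to the right), with the number tested in parentheses. The dashed lines mark all tested genes (25.2% lower and 28.5% higher). The list of extracellular matrix genes and proteases, which also holds Serpinb inhibitors, reaches 52.1% higher. The list of entry into and folding in the endoplasmic reticulum reaches 52.8% lower.

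The secretory genes split by compartment. In the list of entry into and folding in the endoplasmic reticulum (ER), 28 of 53 tested members were lower and 5 higher, with a median log2 fold change of -0.39. Calr, the lectin chaperone calreticulin (chromosome 8, 87365749 to 87370833, minus strand), had 92.1, 80.2 and 83.1 normalised CPM in the sko libraries, against 254, 297 and 282 in the controls (log2 fold change -1.71 ± 0.12 SE, edgeR adjusted p 1.8e-08). Dnajc3, an ER co-chaperone that restrains the kinase PERK, had 219, 213 and 217 normalised CPM in the sko libraries, against 606, 647 and 520.2 in the controls. Sec61g, a small subunit of the translocation channel, had 71.9, 93 and 79.6 CPM in sko and 202, 229 and 299 CPM in control libraries. All 3 genes lay far below the controls in each sko library. Against them Ostc, a subunit of the oligosaccharyltransferase, had 49.1, 49.7 and 61.4 CPM in sko and 30.4, 22.9 and 28.8 CPM in control libraries, and Dnajb9, another ER co-chaperone, had 13.9, 13.7 and 12.5 CPM in sko and 7.31, 5.76 and 4.5 CPM in control libraries.

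Of 81 genes for COPII and COPI coats and Golgi tethers, 24 were lower and 12 higher, a balance that turned to 17 lower and 20 higher with library size alone. Sec13, of the outer COPII coat, had 269, 268 and 253 CPM in sko and 558, 531 and 470.2 CPM in control libraries, and Ctage5, which helps export large cargo from the ER, had 62.1, 71.6 and 66.7 CPM in sko and 146, 113 and 139 CPM in control libraries. Arf4, a small GTPase that recruits coats, lay higher, with 29.9, 27.6 and 32.4 CPM in sko and 13, 11.1 and 11.3 CPM in control libraries. Golgi glycosyltransferases leaned to increases, with 26 of 82 higher and 16 lower. Chst7, a sulphotransferase of chondroitin chains (chromosome X, 19636686 to 19674647, plus strand), had 139.9, 168 and 167 normalised CPM in the sko libraries, against 37.4, 30.5 and 34.5 in the controls (log2 fold change 2.21 ± 0.13 SE). In the ganglioside pathway, St3gal5, which makes the ganglioside GM3, had 2.7, 1.35 and 2.78 CPM in sko and 15, 19.5 and 17.4 CPM in control libraries, whereas St8sia1, which extends GM3 to GD3, had 16.1, 10.7 and 12.5 CPM in sko and 1.02, 1.57 and 0.912 CPM in control libraries. The 2 enzymes thus changed in opposite directions, by -2.92 ± 0.24 and 3.49 ± 0.25 on the log2 scale.

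Genes of vesicle fusion and of Rab proteins gave 40 higher and 27 lower of 111. Stx18, a SNARE of the ER, had 233, 209 and 211 CPM in sko and 95.1, 82.8 and 76.3 CPM in control libraries, and Rab5b, a GTPase of early endosomes, had 20.7, 17.7 and 18.7 CPM in sko and 4.76, 4.73 and 4.65 CPM in control libraries. Stx7, a SNARE of late endosomes, had 24.5, 22.7 and 22.2 CPM in sko and 55.4, 52.1 and 45.9 CPM in control libraries, and Stxbp6, a regulator of SNARE assembly, had 44.9, 42.3 and 38.3 CPM in sko and 97.4, 101 and 94.4 CPM in control libraries. Stx18 and Rab5b were thus higher and Stx7 and Stxbp6 lower in every sko library. In the endosome, lysosome and autophagy list 43 of 135 were lower and 32 higher, but 34 lower and 41 higher with library size alone. Vps54, of the tether that returns cargo from endosomes to the Golgi, had 33.5, 32 and 32.9 CPM in sko and 10.8, 11.1 and 11.5 CPM in control libraries. Grn, which encodes the lysosomal growth factor progranulin, had 6.81, 3.88 and 6.84 CPM in sko and 21, 19.1 and 18.7 CPM in control libraries, and Atp6v0a2, a proton pump subunit, had 17.9, 17.1 and 19.7 CPM in sko and 37.5, 45.3 and 45.6 CPM in control libraries.

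Extracellular matrix genes and their proteases were the secretory list with the most increases, 49 of 94 higher and 13 lower, with a median of 0.54. The list also holds protease inhibitors of the Serpinb family. Of 12 tested genes with the stem Serpinb, 11 were higher and 1 lower, and their part in the balance of this list was not tested. Thbs4, a thrombospondin of tendon and muscle matrix, had 41.8, 36 and 37.5 normalised CPM in the sko libraries, against 2.41, 1.83 and 2.2 in the controls (log2 fold change 4.15 ± 0.17 SE, edgeR adjusted p 5.3e-11). Serpinb1a, an inhibitor of neutrophil proteases, had 56.2, 63.6 and 51.6 CPM in sko and 1.66, 1.4 and 0.943 CPM in control libraries. Its relative Serpinb3a had 178, 164 and 149.9 CPM in sko and 17.9, 16.6 and 12.4 CPM in control libraries, and reads shared within the Serpinb family leave both uncertain. Lamb1, a laminin chain of basement membranes, ran the other way with 179, 233 and 214 normalised CPM in the sko libraries, against 590.2, 782 and 1038 in the controls, and Lama5, another laminin chain, had 2.75, 1.87 and 1.97 CPM in sko and 4.68, 5.76 and 8.3 CPM in control libraries. Granulosa and cumulus markers were also higher in sum in sko, at 0.134 to 0.148% of counts against 0.0870 to 0.0991% in control libraries. Most of that sum came from Serpine2, and the part of these markers in this list was not tested.

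Genes of central carbon metabolism leaned down. In glycolysis and the pentose phosphate pathway, 22 of 47 members were lower and 10 higher (median -0.31). Tpi1, triosephosphate isomerase, had 8.22, 10.4 and 11.3 CPM in sko and 45.2, 45.7 and 44 CPM in control libraries, Aldoa, an aldolase, had 8.84, 8.59 and 8.41 CPM in sko and 27.8, 29.8 and 27.4 CPM in control libraries, and Pgk1, phosphoglycerate kinase, had 9.9, 6.74 and 8.96 CPM in sko and 31.2, 30.1 and 28.7 CPM in control libraries. These 3 enzymes have processed pseudogenes, so their levels are uncertain. Ldhc, the lactate dehydrogenase of germ cells, was higher, with 76.2, 93 and 90.7 normalised CPM in the sko libraries, against 26.8, 22.1 and 24.4 in the controls (log2 fold change 1.82 ± 0.13 SE), and so was Taldo1, the transaldolase of the pentose phosphate pathway, with 222, 230.2 and 241 CPM in sko and 122, 123 and 114 CPM in control libraries. Of 48 genes of pyruvate oxidation and the citric acid cycle, 19 were lower and 6 higher, with 9 each way under library size alone. Brp44, a subunit of the mitochondrial pyruvate carrier, had 23, 26.9 and 25.8 CPM in sko and 59, 55.6 and 67.8 CPM in control libraries, and Idh3g, of isocitrate dehydrogenase, had 30.5, 30.3 and 26.4 CPM in sko and 70.3, 56.2 and 49.6 CPM in control libraries. Gls2, a glutaminase, had 15.1, 16.6 and 20.9 CPM in sko and 0.554, 0.833 and 0.534 CPM in control libraries, well above the controls in each sko library.

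Lipid genes moved both ways. Fdft1, squalene synthase, had 613, 566 and 565 normalised CPM in the sko libraries, against 1248, 1140.0 and 912 in the controls (log2 fold change -0.92 ± 0.13 SE), and Abcg1, a cholesterol exporter, had 39.9, 29.2 and 24.5 CPM in sko and 115, 89.8 and 89.1 CPM in control libraries, while Fdps, which makes the precursor of squalene, was higher with 15.2, 13.1 and 15.8 CPM in sko and 5.85, 8.49 and 7.67 CPM in control libraries. The cholesterol list as a whole held 8 higher and 7 lower of 34. Plin2, a coat protein of lipid droplets, had 27.9, 27.5 and 26.9 CPM in sko and 6.48, 5.8 and 5.94 CPM in control libraries, and Dgat2, which makes triglyceride, had 2.96, 2.71 and 3.28 CPM in sko and 12.2, 17.9 and 14.8 CPM in control libraries. The droplet coat was higher and the triglyceride enzyme lower in every sko library. Of 71 fatty acid and lipid droplet genes 22 were higher and 21 lower (21 and 22 in DESeq2). Among phospholipid and sphingolipid genes 23 of 64 were lower and 12 higher. Lpcat2, which remodels phosphatidylcholine, had 143, 157 and 158 normalised CPM in the sko libraries, against 37.8, 26 and 33.4 in the controls, and Far2, which reduces fatty acids to alcohols, had 43.8, 57.5 and 52.6 CPM in sko and 2.11, 3.3 and 1.35 CPM in control libraries. Pld3, of the phospholipase D family, had 8.92, 5.31 and 7.34 CPM in sko and 20.2, 20.7 and 19.8 CPM in control libraries.

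In amino acid and one-carbon metabolism 19 of 53 genes were lower and 13 higher, which became 13 lower and 16 higher with library size alone. Cth, cystathionine gamma-lyase, which makes cysteine (chromosome 3, 157557212 to 157588041, minus strand), had 223, 226 and 228 normalised CPM in the sko libraries, against 66.6, 51.7 and 50.6 in the controls (log2 fold change 2.00 ± 0.13 SE, edgeR adjusted p 8.6e-09). Sms, spermine synthase, had 46.2, 43.7 and 33.3 normalised CPM in the sko libraries, against 152, 168 and 164 in the controls. Cth was thus higher and Sms lower in all 3 sko libraries. Psph and Gcsh, of serine synthesis and glycine cleavage, were higher, with 8.33, 8.43 and 6.13 CPM in sko and 1.61, 1.1 and 2.26 CPM in control libraries for Psph. Of 61 purine and pyrimidine genes 17 were higher and 12 lower. Pnp, a purine nucleoside phosphorylase, had 236, 196 and 254 CPM in sko and 121, 101 and 91.3 CPM in control libraries and Gda, guanine deaminase, had 123, 118 and 118 CPM in sko and 56.2, 60.6 and 67.7 CPM in control libraries, both enzymes of purine breakdown, while Tk1, thymidine kinase, had 33.1, 28.8 and 24.3 CPM in sko and 78.1, 77.3 and 68.7 CPM in control libraries.

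Genes for glutathione, thioredoxin and peroxide handling gave 21 lower and 10 higher of 60, with a median of -0.25. Prdx6, a peroxiredoxin, had 15, 12.5 and 12.2 CPM in sko and 51, 36.3 and 38.6 CPM in control libraries, and Sepw1, a small selenoprotein, had 137, 148 and 134 CPM in sko and 275, 258 and 304 CPM in control libraries. Nfe2l2, the transcription factor NRF2 that drives antioxidant genes, was higher, with 21.2, 16.8 and 20.1 CPM in sko and 12.2, 12.2 and 10.3 CPM in control libraries. Of 235 solute carriers 70 were higher and 61 lower, close to the shares of all genes. Slc5a12, a lactate transporter of kidney, had 44.8, 42.3 and 40.8 CPM in sko and 10.2, 10.2 and 7.89 CPM in control libraries, and Slc16a4, of the monocarboxylate transporter family, had 8.2, 13.6 and 12.8 CPM in sko and 0.471, 0.433 and 0.377 CPM in control libraries. Slc7a2, an importer of cationic amino acids, had 19.1, 21.5 and 18.9 CPM in sko and 69.4, 79.9 and 83.8 CPM in control libraries, and Slc30a4, a zinc transporter, had 9.37, 9.5 and 9.15 CPM in sko and 41.3, 45.3 and 62 CPM in control libraries. In each of these 4 genes the groups lay apart.

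In the cytoskeletal theme, genes of the centrosome, of acentriolar spindle poles and of microtubule regulation fell most often, with 37 of 81 lower and 11 higher (median -0.35). The part of abundance in this balance was not tested. Mouse oocytes lack centrioles and build their spindle from several organising centres. Katna1, the severing enzyme katanin, had 76.8, 77.4 and 74.6 normalised CPM in the sko libraries, against 162, 171 and 147 in the controls (log2 fold change -1.07 ± 0.12 SE, edgeR adjusted p 1.8e-06). Cep120, a factor of centriole assembly, had 9.42, 7.55 and 11 CPM in sko and 24.3, 26.4 and 30.1 CPM in control libraries. Sass6, which shapes the centriole's core, had 6.83, 6.66 and 6.71 CPM in sko and 15.2, 14.2 and 16.5 CPM in control libraries. Mtap1b, a microtubule-associated protein best known from neurons, was among the 11 that rose, with 240.3, 237 and 243 CPM in sko and 178, 147 and 131 CPM in control libraries. Of 59 kinesin and dynein genes 16 were higher and 11 lower. Dync1i1, a dynein intermediate chain, had 6.62, 7.23 and 5.37 CPM in sko and 1.39, 1.1 and 1.01 CPM in control libraries, and Kif1b, a kinesin of organelle transport, had 25.8, 24.7 and 24 CPM in sko and 46.7, 53.3 and 57.5 CPM in control libraries.

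Of 90 actin genes and regulators 29 were lower and 25 higher, or 19 lower and 31 higher with library size alone. Tpm2, a tropomyosin, had 17.8, 19.9 and 18.1 CPM in sko and 1.8, 2.7 and 2.2 CPM in control libraries, and Nf2, which encodes merlin, a linker of the cortex to Hippo signalling, had 25.1, 31.7 and 23 CPM in sko and 6.51, 6.5 and 7.17 CPM in control libraries. Tmod2, which caps filament ends, had 1.41, 1.48 and 0.97 CPM in sko and 8.89, 7.76 and 8.83 CPM in control libraries, and the formin Fmnl3 had 17.5, 19.9 and 18.5 CPM in sko and 48.8, 58.2 and 105 CPM in control libraries. Tpm2 and Nf2 were higher and Tmod2 and Fmnl3 lower in every sko library. Among 30 myosins 10 were higher and 7 lower, and the vesicle motor Myo5b had 194, 206 and 202 CPM in sko and 292, 314 and 323 CPM in control libraries. Among regulators of small GTPases of the cytoskeleton, Vav3, an activator of Rac (chromosome 3, 109143571 to 109488616, plus strand), had 48.5, 47.8 and 50.4 normalised CPM in the sko libraries, against 5.85, 4.7 and 4.5 in the controls (log2 fold change 3.28 ± 0.15 SE, edgeR adjusted p 1.6e-10), and Pak2, a kinase downstream of Rac, had 19.6, 20.7 and 23.1 CPM in sko and 3.8, 3.33 and 3.61 CPM in control libraries. Iqgap1, a scaffold that binds Rac and Cdc42, had 35.7, 36.1 and 33.1 CPM in sko and 10.7, 11.9 and 14.1 CPM in control libraries.

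Of 40 intermediate filament and lamina genes 19 were higher and 8 lower, with a median of 0.74. Of 20 tested genes with the stem Krt, the keratins, 14 were higher and 2 lower, at a median level of 1.5 CPM. The part of keratins in the balance of this list was not tested. Krt73, a keratin of the hair follicle sheath, had 71, 78.4 and 72.8 CPM in sko and 6.87, 8.63 and 5.82 CPM in control libraries. Krt25, another keratin of that sheath, had 42.7, 55.7 and 48.5 CPM in sko and 4.27, 6.1 and 5.22 CPM in control libraries, and both are uncertain because keratins share sequence. Sun1, which links the nucleus to the cytoskeleton, was lower, with 28.9, 27.3 and 34 CPM in sko and 45.6, 56.4 and 58.2 CPM in control libraries. Of 82 adhesion and junction genes 23 were higher and 19 lower. Jam3, a junctional adhesion molecule, had 52.5, 55 and 58.9 normalised CPM in the sko libraries, against 6.23, 6.79 and 6.44 in the controls (log2 fold change 3.09 ± 0.14 SE), and its partner Jam2 went the other way with 7.66, 8.09 and 7.55 CPM in sko and 23.2, 18.4 and 22.5 CPM in control libraries. Cldn8, a claudin of tight junctions, had 154, 137 and 145 CPM in sko and 25, 20.4 and 19.5 CPM in control libraries. Cdh1, E-cadherin, had 17.2, 15.4 and 15.6 CPM in sko and 33.5, 43.4 and 49 CPM in control libraries, so that the 3 sko libraries lay below every control.

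Growth factor and morphogen pathways held members that moved each way. Of 40 TGF-beta and BMP genes, the pathway of the oocyte's own GDF9 and BMP15, 11 were higher and 10 lower. Smad3, which carries the signal of the TGF-beta branch, had 39.7, 42.7 and 49.9 CPM in sko and 70.8, 97.6 and 119.9 CPM in control libraries, and Zfyve9, which presents SMADs to the receptor, had 10.6, 8.9 and 9.33 CPM in sko and 31, 27.7 and 24.3 CPM in control libraries. The repressor Tgif1 had 26.8, 18.9 and 25.8 CPM in sko and 3.41, 2.8 and 2.33 CPM in control libraries, and Id3, a target of BMP signalling in other cells, had 23.3, 25.8 and 38 normalised CPM in the sko libraries, against 4.49, 5.26 and 4.94 in the controls (log2 fold change 2.57 ± 0.19 SE). A transducer and a presenter were thus lower, and the repressor and Id3 higher. Of 51 Wnt genes 13 were higher and 8 lower. Gsk3b, the kinase that marks beta-catenin for destruction, had 53.1, 53.8 and 61.5 CPM in sko and 23, 17.4 and 16.3 CPM in control libraries, and Wls, which escorts Wnt proteins to the surface, had 23.2, 20.7 and 23 CPM in sko and 9, 8.09 and 6.73 CPM in control libraries. Rspo2, a secreted amplifier of Wnt signals, had 235, 243 and 251 CPM in sko and 356, 439 and 468 CPM in control libraries.

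Notch and Hedgehog genes gave 13 lower and 6 higher of 33. Gli2 and Gli3 are the transcription factors of the Hedgehog pathway, chiefly its activator and its repressor. Gli2 had 10.9, 13 and 14.3 normalised CPM in the sko libraries, against 2.52, 2.8 and 1.6 in the controls, and Gli3 had 10.6, 12 and 9.86 normalised CPM in the sko libraries, against 32.5, 38.5 and 55.8 in the controls. They changed in opposite directions, by 2.46 ± 0.22 and -1.96 ± 0.18 on the log2 scale. Sufu, which holds both in the cytoplasm, had 12.1, 14.2 and 14.5 CPM in sko and 26.5, 29.4 and 28.4 CPM in control libraries. Of 57 receptor tyrosine kinases and ligands 16 were higher and 14 lower, though 16 were higher and 20 lower of the 95 tested without a filter. Efna1, an ephrin, had 38, 52.5 and 47.8 CPM in sko and 7.81, 10.7 and 8.49 CPM in control libraries, Fgf7, a growth factor for epithelia, had 25.4, 24.5 and 21.1 CPM in sko and 7.2, 6 and 4.59 CPM in control libraries, and the ephrin receptor Ephb4 had 0.988, 1.25 and 0.996 CPM in sko and 4.18, 7.23 and 5.06 CPM in control libraries. The ephrin ligand was higher and the ephrin receptor lower in each sko library.

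Downstream kinases were near balance. Ras and MAP kinase genes gave 21 lower and 20 higher of 90, or 16 lower and 25 higher with library size alone. Spry4, a feedback inhibitor of the pathway, had 108, 79.2 and 107 CPM in sko and 201, 231 and 189 CPM in control libraries, and Map2k5 had 6.81, 4.74 and 4.82 CPM in sko and 0.665, 0.566 and 0.597 CPM in control libraries. PI3K, AKT, mTOR and AMPK genes gave 19 lower and 16 higher of 64, or 11 lower and 21 higher with library size alone. Foxo3, which keeps primordial follicles dormant, had 11.5, 12.1 and 10.3 CPM in sko and 21.4, 26.3 and 27.5 CPM in control libraries, and Foxo1 had 31.9, 34.6 and 48.1 CPM in sko and 61.4, 86.9 and 122 CPM in control libraries. Both forkhead genes lay below every control. Eif4ebp1, a brake on translation that mTOR releases, had 12.8, 13.4 and 13.6 CPM in sko and 2.35, 2.63 and 1.45 CPM in control libraries, and Rraga, of the GTPases that bring mTOR to lysosomes, had 30.6, 22.1 and 26.2 CPM in sko and 57.5, 63.4 and 52.1 CPM in control libraries, while its relative Rragd had 3.84, 5.8 and 6.47 CPM in sko and 0.222, 0.266 and 0.22 CPM in control libraries. Hippo genes gave 10 higher and 8 lower of 36, but 6 higher and 7 lower of the 26 with at least 1 CPM in 3 libraries. Apoptosis genes gave 10 lower and 8 higher of 36, or 8 lower and 10 higher with library size alone. The promoter of cell death Bax had 4.91, 5.72 and 6.84 CPM in sko and 14.9, 14.6 and 16 CPM in control libraries, and the protective Bcl2l1 had 27.8, 22.6 and 22.7 CPM in sko and 41, 55.3 and 45.9 CPM in control libraries, whereas the protective Mcl1 had 2.99, 5 and 4.88 CPM in sko and 1.25, 1.13 and 1.41 CPM in control libraries.

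G protein signalling holds the oocyte in meiotic arrest through cyclic AMP. Of 100 genes for G proteins and cyclic nucleotides 27 were higher and 21 lower. Gpr3, the receptor that keeps cyclic AMP high in the oocyte, had 8.57, 4.84 and 7.18 CPM in sko and 14.9, 19.1 and 17 CPM in control libraries, and Gnai1, an inhibitory G protein subunit, had 6.73, 6.82 and 7.31 CPM in sko and 18.1, 20 and 24.6 CPM in control libraries. Pde1a and Pde1c, phosphodiesterases driven by calcium, were higher, Pde1a with 14, 12.5 and 14.9 CPM in sko and 2.96, 2.17 and 1.07 CPM in control libraries. The receptor and the inhibitory subunit were thus both lower. Among 70 other G protein-coupled receptors 28 were higher and 10 lower (median 0.61). Gpr64, an adhesion receptor of the epididymis, had 13.8, 17 and 15.5 normalised CPM in the sko libraries, against 0.554, 0.5 and 0.692 in the controls (log2 fold change 4.72 ± 0.22 SE, edgeR adjusted p 2.1e-10), and Htr5b, a serotonin receptor, had 9.32, 9.58 and 11.8 CPM in sko and 1.08, 1.27 and 0.566 CPM in control libraries. Gpr1 had 259.8, 269 and 233 CPM in sko and 535, 438 and 340.3 CPM in control libraries. This list includes Fshr, a granulosa marker. The summed share of those markers, given above and mostly from Serpine2, was also higher in sko.

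Calcium is the signal of egg activation. Of 87 genes of calcium release and channels 29 were higher and 20 lower. Nfatc1, a transcription factor switched on by calcineurin, had 69.1, 60.7 and 59.5 normalised CPM in the sko libraries, against 0.886, 2.17 and 1.7 in the controls (log2 fold change 5.33 ± 0.23 SE, edgeR adjusted p 1e-10). Stim2, a sensor of stored calcium, had 23.6, 22 and 20.2 CPM in sko and 62, 47.7 and 55.7 CPM in control libraries. Fbxo43 (EMI2), which holds the egg in its second arrest until calcium rises, had 90.8, 87.4 and 82.7 CPM in sko and 199, 217 and 168 CPM in control libraries. Nfatc1 was far higher, and the other 2 genes were lower, in each sko library. Of 89 cytokine, JAK-STAT and NF-kB genes 32 were higher and 19 lower. Ikbkb, the kinase that frees NF-kB (chromosome 8, 23769684 to 23817061, minus strand), had 146, 123 and 133 normalised CPM in the sko libraries, against 21.7, 17.3 and 18.2 in the controls. Nfkbib, an inhibitor of NF-kB, had 11.6, 9.42 and 10.5 CPM in sko and 31.5, 28.9 and 29.8 CPM in control libraries, and Il6st, the shared receptor gp130, had 8.04, 6.17 and 7.63 CPM in sko and 18.1, 22.6 and 22.2 CPM in control libraries. Tnfsf13b, a B cell survival factor, had 16.4, 18.5 and 14.7 CPM in sko and 1.99, 2.36 and 1.67 CPM in control libraries. Markers of immune, endothelial and blood cells summed to 0.0171 to 0.0179% of counts in sko and 0.0131 to 0.0159% in control libraries. Most of that sum came from Ms4a1, with 138.4, 146.5 and 133.1 CPM in sko and 161.7, 119.8 and 119.9 CPM in control libraries. Its groups overlapped, and the part of these markers in this list was not tested.

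All 7 lists of chromatin complexes had more members lower than higher, and 3 of them (remodellers, heterochromatin and histone chaperones) kept that balance with library size alone. Among all genes decreases also outnumbered increases at 10 to 100 CPM (34.8% lower, 26.5% higher) and at 100 to 1000 CPM (40.3% lower, 17.8% higher). The part of abundance in these lists was not tested. Of 39 Polycomb genes 14 were lower and 9 higher, or 11 each way with library size alone. Kdm2b, which guides Polycomb to CpG islands, had 140.1, 162 and 174 CPM in sko and 263, 307 and 354 CPM in control libraries, and Sfmbt1 had 94.4, 85.1 and 91 CPM in sko and 193, 211 and 189 CPM in control libraries, while Aebp2 and Mtf2, accessory factors of PRC2, were higher, Aebp2 with 92.7, 97.3 and 94 CPM in sko and 44.1, 44.1 and 42.2 CPM in control libraries. Nucleosome remodellers gave 23 lower and 13 higher of 56. Dpf2 and Dpf3 are alternative subunits of BAF remodellers. Dpf2 had 23.4, 22.1 and 23.5 normalised CPM in the sko libraries, against 5.32, 5.5 and 3.61 in the controls, and Dpf3 had 5.95, 9.11 and 7.05 normalised CPM in the sko libraries, against 27.7, 27.1 and 22.8 in the controls. The pair changed in opposite directions, by 2.26 ± 0.18 and -1.81 ± 0.17 on the log2 scale.

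Histone deacetylase, NuRD and Sin3 genes gave 17 lower and 7 higher of 51, or 11 lower and 15 higher with library size alone. Mta2, of the NuRD complex, had 7.31, 8.2 and 5.87 CPM in sko and 0.332, 0.533 and 0.126 CPM in control libraries, and Hdac1 had 12, 13.2 and 12.2 CPM in sko and 4.96, 5.96 and 6.6 CPM in control libraries. Sirt2, a deacetylase, had 4.4, 3.83 and 3.2 CPM in sko and 15, 12.1 and 11.6 CPM in control libraries. Acetyltransferases and acetyl readers gave 19 lower and 11 higher of 52, or 10 lower and 14 higher with library size alone. Hat1, which acetylates new histone H4 (chromosome 2, 71227015 to 71279679, plus strand), had 383, 471 and 440.5 normalised CPM in the sko libraries, against 172, 139.6 and 148 in the controls (log2 fold change 1.49 ± 0.13 SE, edgeR adjusted p 1.5e-07). Myst1 (MOF), which acetylates H4 on chromatin, had 52.7, 50.6 and 50.1 CPM in sko and 123, 108 and 97.8 CPM in control libraries. The enzyme for new histones was higher and the one for chromatin lower in all sko libraries.

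Heterochromatin and retroelement silencing genes gave 23 lower and 12 higher of 52. Tex15, a silencer of retroelements in the male germ line, had 26, 22.6 and 19.7 normalised CPM in the sko libraries, against 124, 86.7 and 114 in the controls (log2 fold change -2.25 ± 0.16 SE, edgeR adjusted p 1.3e-08), and Lrwd1, which binds heterochromatin with the origin recognition complex, had 3.52, 2.08 and 3.49 CPM in sko and 12.5, 12.7 and 12.4 CPM in control libraries. Setdb2, a histone H3 lysine methyltransferase, had 127, 139 and 120.4 CPM in sko and 55.8, 46 and 50.7 CPM in control libraries, and Mov10, a helicase that restrains retroelements, had 8.38, 8.27 and 8.2 CPM in sko and 1.25, 1.3 and 1.41 CPM in control libraries. Silencers thus stood on both sides. Histone chaperones gave 16 lower and 5 higher of 35 (median -0.42). Mcm2, a replicative helicase subunit that also holds histones, had 29, 22.1 and 27 CPM in sko and 51.6, 63 and 59.4 CPM in control libraries, and Chaf1a, of chromatin assembly factor 1, had 35.1, 32.7 and 39.6 CPM in sko and 69.8, 70.3 and 66.2 CPM in control libraries, while Asf1b was higher with 282, 296 and 286 CPM in sko and 172, 119 and 103 CPM in control libraries. Condensin, SMC and topoisomerase genes gave 14 lower and 7 higher of 38, or 6 lower and 13 higher with library size alone. Esco2, which acetylates cohesin, had 823, 842 and 793 CPM in sko and 431, 344 and 305 CPM in control libraries, the condensin subunit Smc2 had 79.7, 99.7 and 89.3 CPM in sko and 46.8, 42.8 and 40.7 CPM in control libraries, and Nsmce1, of the SMC5/6 complex, had 234, 238 and 228 CPM in sko and 480.1, 475 and 508 CPM in control libraries. Of 281 zinc finger genes with KRAB-type symbols, many with close relatives, 94 were higher and 77 lower, and Zfp937 had 27, 27 and 26.8 CPM in sko and 4.65, 4.83 and 4.24 CPM in control libraries.

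The developmental theme was 34.1% higher and 11% lower under 1 CPM, against 28.5% and 8.04% of all genes, and 39.0% higher and 22.8% lower from 1 to 10 CPM, against 33.6% and 21.4% of all genes, with no test of the difference. Nuclear receptor and steroid enzyme genes gave 18 higher and 8 lower of 45 (median 0.44). Aldh1a2, which makes retinoic acid (chromosome 9, 71063596 to 71144050, plus strand), had 571, 600.4 and 618 normalised CPM in the sko libraries, against 149, 129 and 99 in the controls (log2 fold change 2.25 ± 0.15 SE, edgeR adjusted p 7.4e-09). Crabp2, which carries retinoic acid to its receptor, had 441, 687 and 603 CPM in sko and 236, 198 and 217 CPM in control libraries, and Rara, a retinoic acid receptor, had 0.694, 0.781 and 0.577 CPM in sko and 1.69, 2.3 and 2.7 CPM in control libraries. The enzyme and the carrier were higher and this receptor lower in every sko library. Esrrb, an orphan receptor of pluripotent cells, had 28.3, 33.7 and 39.1 CPM in sko and 80.8, 74.6 and 89.1 CPM in control libraries. The list also holds Cyp19a1, Cyp17a1 and Nr5a2, which are among the granulosa and theca markers that were higher in sko.

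Of 67 homeobox genes 20 were higher and 18 lower. Isl2, known from motor neurons, had 92.7, 103 and 95.5 normalised CPM in the sko libraries, against 16.4, 23.5 and 22.2 in the controls (log2 fold change 2.23 ± 0.15 SE), Shox2 had 5.95, 6.53 and 7.34 CPM in sko and 0.942, 1.2 and 1.19 CPM in control libraries, and Otx1, of the forebrain, had 2.94, 2.47 and 1.42 CPM in sko and 11.1, 12.5 and 10.2 CPM in control libraries. Sox, Pax and Fox genes gave 7 higher and 6 lower of 22. Sox15 had 20.7, 23.2 and 22.2 CPM in sko and 4.43, 4 and 4.4 CPM in control libraries, and Foxm1, a cell cycle factor, had 13.2, 12.5 and 14.7 CPM in sko and 26.7, 32.6 and 32.1 CPM in control libraries. Isl2, Shox2 and Sox15 were higher and Otx1 and Foxm1 lower in each sko library. Among 86 Gata, Tbx, Runx, Klf and related factors 25 were higher and 24 lower. Zfpm2 (FOG2) is the partner of GATA4 in gonad development. Zfpm2 had 16.6, 13.3 and 20.9 CPM in sko and 0.443, 0.933 and 0.503 CPM in control libraries, and Gata4 had 1.44, 2.19 and 3.04 CPM in sko and 9.67, 9.59 and 12.6 CPM in control libraries. The pair changed in opposite directions, by 4.77 ± 0.27 and -2.25 ± 0.25 on the log2 scale.

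Factors of the bHLH and bZIP families gave 25 higher and 10 lower of 61. Nfil3, a bZIP repressor, had 97.3, 61.5 and 66.3 normalised CPM in the sko libraries, against 448, 435 and 327 in the controls (log2 fold change -2.43 ± 0.18 SE, edgeR adjusted p 2e-08), and Ahr, the dioxin receptor, had 15.8, 11.1 and 16.8 CPM in sko and 30.3, 35.3 and 39.4 CPM in control libraries. Of 42 imprinted genes 21 were higher and 7 lower (median 0.58). Impact, a paternally expressed regulator of translation, had 51.8, 56.4 and 45.7 CPM in sko and 5.24, 3.03 and 3.93 CPM in control libraries, and Meg3, a maternally expressed long noncoding RNA of the same cluster as Dio3, had 14.1, 17.7 and 18.5 CPM in sko and 4.74, 4.86 and 4.72 CPM in control libraries. Usp29, a paternally expressed deubiquitinase, had 17.1, 16.1 and 14.2 CPM in sko and 39.3, 34.5 and 26.2 CPM in control libraries. Of 46 pluripotency and germ cell genes 22 were lower and 7 higher (median -0.18; 0.01 with library size alone). Rfpl4, a ubiquitin ligase subunit of oocytes, had 2497, 2889 and 2437 CPM in sko and 5860.1, 5056 and 4104 CPM in control libraries.

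**Figure D4:**
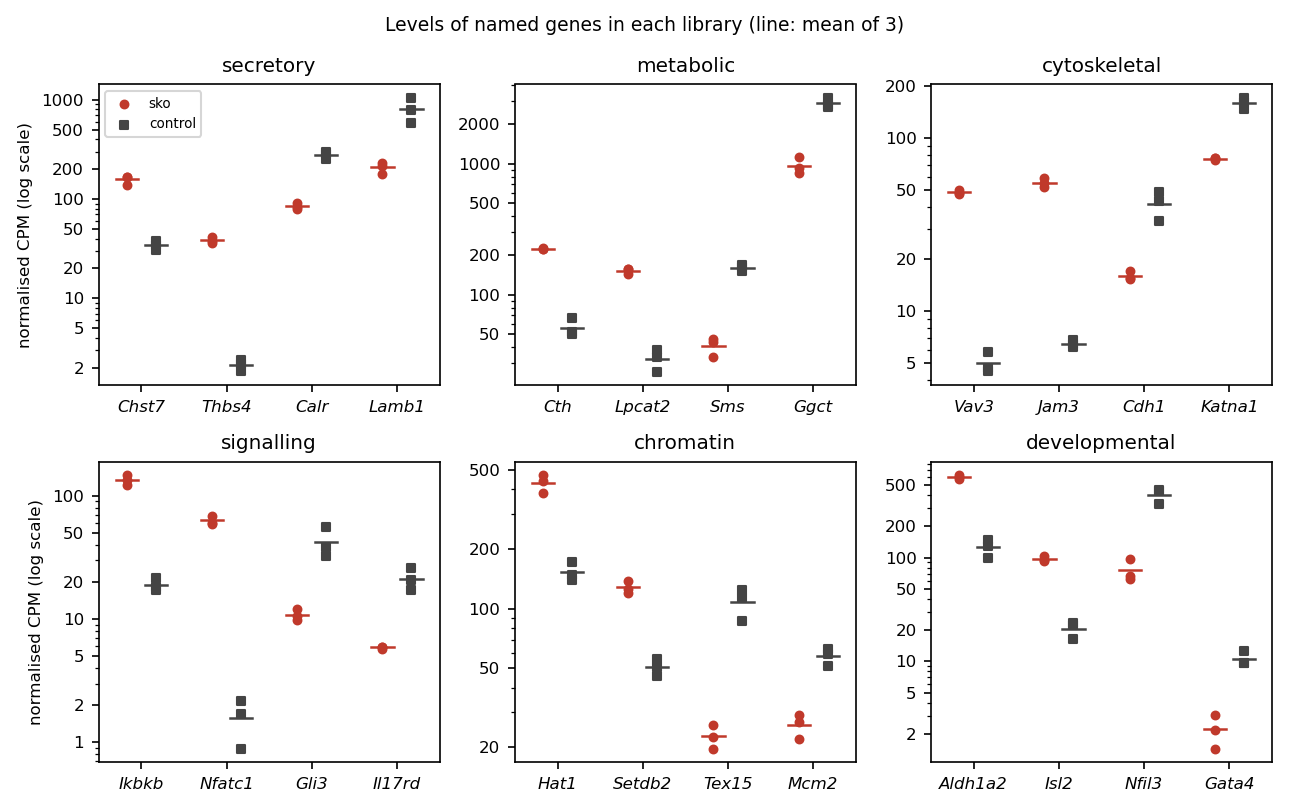
Normalised CPM (log axis) of 24 of the named genes, 4 in each theme, in each of the 3 sko libraries (red circles, left of each pair) and the 3 control libraries (grey squares), with the mean of 3 as a line. In each gene the groups do not overlap; Nfatc1, for example, lies at 59.5 to 69.1 CPM in sko and 0.886 to 2.17 CPM in control libraries, and Ggct at 848 to 1125 CPM in sko and 2743 to 3177 CPM in control libraries.

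In most classes the balance of each theme went the same way as that of all genes. Exceptions were chromatin genes at 1 to 10 CPM (58 higher, 59 lower) and signalling genes at 10 to 100 CPM (72 higher, 70 lower). Secretory genes at 1000 CPM and over also differed (2 higher, 0 lower). The cytoskeletal share lower went against the trend, with 42.4% at 10 to 100 CPM, 29% at 100 to 1000 CPM and 25% at 1000 CPM and over. Over all classes, 164 of 556 secretory genes were higher and 151 lower, 165 and 202 of 662 metabolic genes, 134 and 140 of 481 cytoskeletal genes, 216 and 172 of 752 signalling genes, 158 and 201 of 602 chromatin genes, and 120 and 88 of 357 developmental genes. From 1 to 10 CPM the share higher was 38.0% in the secretory and 39.0% in the developmental theme, against 33.6% of all genes, and 27.6% in the chromatin theme. From 100 to 1000 CPM, 31 of 60 metabolic genes (51.7%) were lower and 10 (16.7%) higher, against 40.3% lower and 17.8% higher among all genes. At the same level 7 of 62 signalling genes were higher and 27 lower, and 16 of 72 chromatin genes were higher and 31 lower. Under 1 CPM, metabolic genes had 22 of 125 higher and 17 lower, whereas developmental genes had 28 of 82 higher and 9 lower.

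**Figure D5:**
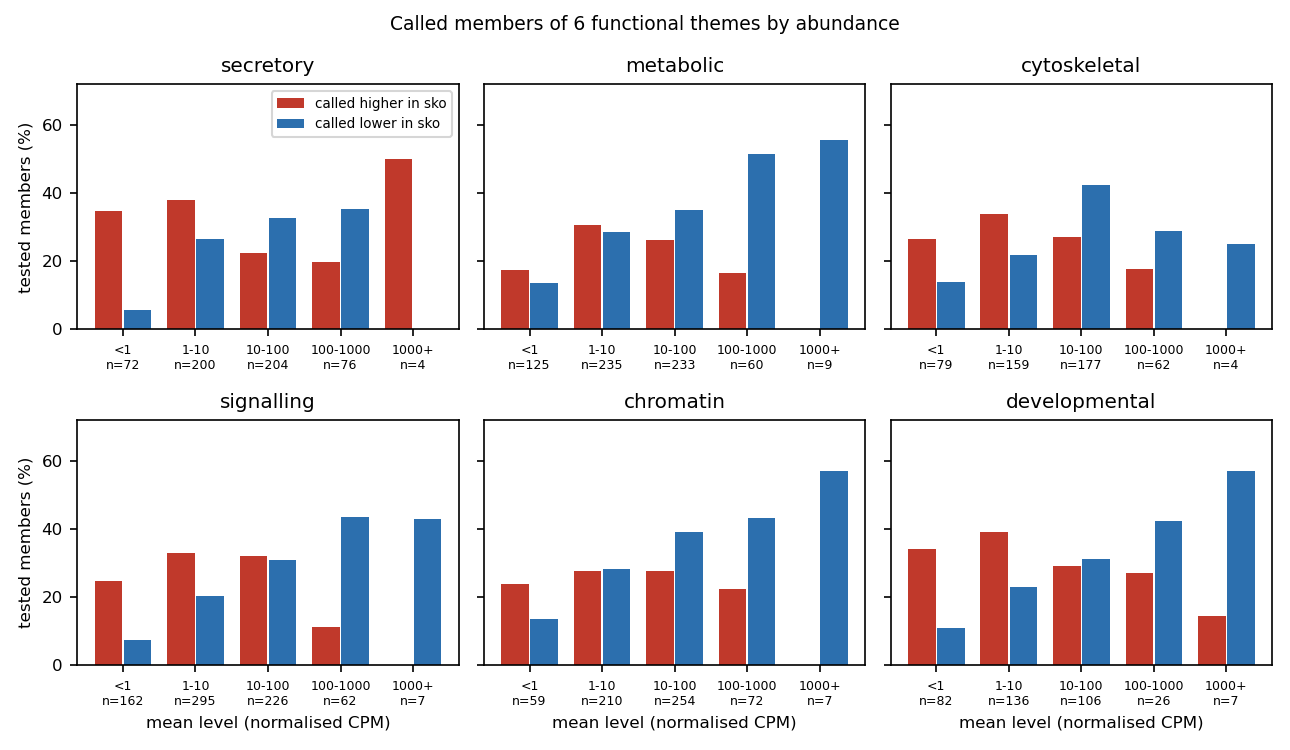
For each of 6 functional themes, the share of tested members (%) called higher (red) and lower (blue) in sko in 5 classes of mean normalised CPM, with the number of members under each class. Classes at 1000 CPM and over hold only 4 to 9 members of a theme; at 100 to 1000 CPM the share lower exceeds the share higher in every theme, with 51.7% against 16.7% among metabolic genes.

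Promoter windows were read for a G-quadruplex motif, since DHX36 acts on such structures. The motif was 4 runs of at least 3 G joined by loops of 1 to 7 bases, searched on both strands of the RefSeq windows (build GRCm38.p6) from 250 bases before to 50 after a gene's start. Of the protein-coding genes, 80.4% of those higher in sko, 82.5% of those lower and 80.7% of those not called had a window. The motif was in 857 of 3540 windows (24.2%) of genes that were higher, in 917 of 3452 (26.6%) of genes that were lower and in 1473 of 5763 (25.6%) of genes not called, beside 18.6% of all windows of the reference. The median GC content of these windows was 57.7% in genes that were higher, 61.0% in genes that were lower and 60% in genes not called. By abundance class, under 1 CPM the motif was in 21.9% of windows of genes higher and 32.6% of genes lower. These shares were 23.6% and 26.3% at 1 to 10 CPM, and 25.5% and 25.7% at 10 to 100 CPM. They were 27.8% and 29.2% at 100 to 1000 CPM. At 1000 CPM and over they were 11.8% and 17.6%, of only 17 and 74 windows. No test was made, and a match is no evidence of binding. The sequences shown, 3 from genes that were higher and 2 from genes that were lower, are matches before the start on the coding strand in the called genes of at least 10 CPM with the smallest p, with the G runs of the matched motif in capitals and 8 flanking bases on each side in lower case, which may hold further runs of G. The first set comes from genes that were higher in sko: S100a16 (chr3:90537101-90537141, plus strand), Vav3 (chr3:109340545-109340581, plus strand) and Cd200 (chr16:45409059-45409097, minus strand). The others come from genes that were lower: Upf3b (chrX:37110481-37110521, minus strand) and Slc30a4 (chr2:122702835-122702869, minus strand).
S100a16: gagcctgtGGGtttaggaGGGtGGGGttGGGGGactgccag
Vav3: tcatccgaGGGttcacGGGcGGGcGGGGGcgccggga
Cd200: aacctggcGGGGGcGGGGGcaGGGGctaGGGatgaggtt
Upf3b: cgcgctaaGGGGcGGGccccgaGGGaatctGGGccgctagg
Slc30a4: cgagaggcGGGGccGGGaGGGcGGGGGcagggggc
S100a16, which encodes a calcium-binding protein, had 43.5, 48.6 and 37.2 CPM in sko and 3.49, 3.8 and 3.8 CPM in control libraries, and Cd200, an inhibitory surface ligand, had 69, 66.8 and 60.6 CPM in sko and 9.47, 11.2 and 11.5 CPM in control libraries. The levels of Vav3, Upf3b and Slc30a4 are given above. These genes were chosen from each direction of change for holding the motif, so they are examples only.

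The median exonic length, with no test made, was 3291 bases in genes higher in sko, 3500 bases in genes lower and 3313 bases in genes not called. Of 15 mitochondrially encoded genes, 6 were lower (40%) and 1 higher (6.67%) in sko, against 25.2% and 28.5% of all genes. The share of counts in all mitochondrially encoded genes was 1.08, 0.998 and 0.829% in the sko libraries and 0.944, 0.796 and 0.826% in the control libraries, so that the groups overlapped.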

How the data were processed

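The deposited table gives the authors' raw read counts per gene for 6 libraries of growing oocytes used here (3 sko, 3 control), with columns for gene position and exonic length, per the file headers. For the series as a whole, featureCounts 2.0.1, STAR 2.5.2b, HISAT2 2.1.0, cutadapt 1.15, fastp 0.21.0 and build mm9 stand in the submitters' processing notes. Their roles, the strand setting and the handling of multi-mapping reads were not given in the sources used here. Overlapping genes, antisense genes and multigene families are therefore uncertain.

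Of 33924 rows, 25 symbols turned into dates were restored. Counts were fitted with edgeR 4.0.16 in R 4.3.3: filterByExpr (minimum count 10), TMM factors, a quasi-likelihood test and Benjamini-Hochberg adjustment over 14081 genes, threshold 0.05. Each SE was computed as the log2 fold change, without its sign, divided by the square root of F, and may be too small at few counts. DESeq2 1.42.0, 2 other scalings, 3 other filters, a test against a fold of 1.5, and leaving out each library were the alternatives. The script was tested on simulated counts.

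The members and gene lists were chosen with earlier results of these data known. Named genes were, per list, up to 3 called members each way with the smallest p, a mean of at least 1 CPM and no overlap between groups. Added were the 5 each way per abundance class, the 10 largest gains and losses in CPM, and Dhx36. The text gives part of the 342, and a few items among the genes, lists and sequences are not reported here. S100a16 and Cd200 are named for their promoter motif.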

Additional observations from a re-analysis of the deposited data

How the results depend on the processing

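Calls numbered 7566 in the edgeR test. They numbered 7211 with library size alone, 7613 with median-of-ratios (RLE) factors, 7644 in DESeq2, 8083 of 22666 genes without a filter, and 6748 with at least 1 CPM in 3 libraries. A filter on the average CPM, chosen after seeing the data, gave 6578. No gene was called in opposite directions under any of these. Against a fold of 1.5, 3811 genes passed, 2437 higher and 1374 lower, since that test asks for a larger change. Leaving out 1 library gave 6625 to 7687 calls. Of the 342 named genes, Tmpo (log2 fold change -0.44, adjusted p 0.0770) and Mark2 (-0.40, 0.0712) were not called with library size alone. Obox5 was not called without sko replicate 5 (adjusted p 0.103), sko replicate 6 (0.0664) or control replicate 3 (0.0595). The causes were not tested. Leaving out 1 library turned the balance of lists near equality: without control replicate 3, cholesterol (8 higher, 10 lower), purine (16, 17), Ras (22, 21), apoptosis (8, 7) and zinc finger genes (77, 78); without control replicate 1, Hippo genes (9, 11) and the Gata list (21, 26); and the last also without sko replicates 5 (21, 22) and 6 (22, 23). The fold of 1.5 turned the endosome (19, 16), actin (17, 15), Ras (12, 8), PI3K (9, 5), apoptosis (6, 3), acetyltransferase (7, 4) and condensin lists (5, 4). The abundance trend was also seen over 5 equal classes of genes, again chosen after seeing the data, from 28.4% higher and 8.02% lower in the lowest to 20.6% and 39.4% in the highest. No paired analysis was possible because the sko and control libraries share no replicate number. With 3 libraries a group, a gene with few counts could change without being detected.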

Other observations

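Genes were also grouped by the stem of their symbol, which gave 198 stems with at least 8 tested genes. The stems named here were chosen after their values were seen, so their counts are descriptions. Of all tested genes 28.5% were higher and 25.2% lower. Of 62 olfactory receptor genes (Olfr) 41 were higher in sko and 1 lower, and of 30 vomeronasal receptor genes (Vmn) 17 were higher and 3 lower. Their median level was 0.750 CPM for Olfr and 0.903 CPM for Vmn over the 6 libraries, near the filter on low counts. Members that passed this filter only through the group where they are high had to differ. Among all tested genes under 1 CPM, 28.5% were higher and 8.04% lower. Of 20 collagen genes 11 were higher and 1 lower, and of 37 cytochrome P450 genes (Cyp) 17 were higher and 4 lower. Of 12 Serpinb protease inhibitors 11 were higher, among them Serpinb9 with 17.3 ± 2.45 CPM in sko and 4.22 ± 0.92 CPM in control libraries, Serpinb6e with 8.18 ± 1.43 CPM in sko and 0.695 ± 0.41 CPM in control libraries and Serpinb6a with 8.39 ± 1.67 CPM in sko and 2.7 ± 0.546 CPM in control libraries (SD, n = 3 each). Serpinb12, the exception, had 71.8 ± 6.89 CPM in sko and 105 ± 22.9 CPM in control libraries. These families have near-identical members, so single values are uncertain. With library size alone, each of these stems still had more members higher than lower.

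Stems with mostly lower members included genes of replication, cilia and the nucleolus. Of the subunits of the replicative helicase MCM2 to MCM7, Mcm2, Mcm3, Mcm4, Mcm5 and Mcm7 were lower in sko. Mcm3 had 14.7 ± 0.832 CPM in sko and 23.9 ± 1.56 CPM in control libraries, Mcm4 had 36 ± 2.4 CPM in sko and 58.6 ± 8.83 CPM in control libraries, and Mcm5 had 43.4 ± 2.8 CPM in sko and 61.4 ± 5.61 CPM in control libraries. Mcm6, with 70.8 ± 9.23 CPM in sko and 86 ± 10 CPM in control libraries, did not pass the test. Mcm9, of a related helicase of recombination, was higher, with 20.5 ± 2.09 CPM in sko and 15.3 ± 0.607 CPM in control libraries. Intraflagellar transport genes (Ift), which build cilia, gave 7 lower and 0 higher of 12, or 4 and 0 with library size alone. Ift80 had 18 ± 0.919 CPM in sko and 28.4 ± 1.14 CPM in control libraries, and Ift57 had 0.466 ± 0.207 CPM in sko and 2.07 ± 0.518 CPM in control libraries. The abundant Ift81 had 136 ± 2.43 CPM in sko and 129 ± 8.73 CPM in control libraries and was not called. Genes with the stem Nol, mostly nucleolar proteins, gave 6 lower and 1 higher of 9. Nol10 had 48.2 ± 3.31 CPM in sko and 71.9 ± 10.3 CPM in control libraries, while Nol11 had 2.5 ± 0.486 CPM in sko and 1.22 ± 0.336 CPM in control libraries. The X-linked Xlr genes, a family of close copies, gave 9 lower and 0 higher of 12. The 20 Fbxw genes, among them an oocyte cluster of near copies, gave 11 lower and 3 higher.

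Long noncoding RNA genes leaned further toward increases than protein-coding genes. Of 503 tested, 199 (39.6%) were higher in sko and 58 (11.5%) lower, with a median log2 fold change of 0.54. Of 12366 protein-coding genes, 28.0% were higher and 26.9% lower. Among all tested genes under 1 CPM, 28.5% were higher and 8.04% lower, with a median of 0.49. The 468 features not matched to a reference gene were 40% higher and 11.1% lower, with a median of 0.54. The part of abundance in the lean of long noncoding RNA genes was not tested. Over the nuclear chromosomes, the share higher ran from 22.0% on chromosome 8 to 33.9% on chromosome 1, and the X chromosome had 32.9% higher and 23.3% lower of 562.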
